A study of Mus musculus with 18 samples.

Results

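The genes of extracellular matrix proteolysis and the plasminogen system were taken as 9 of the 56748 genes in the deposited count file, by a match of the gene name: *Mmp9*, *Mmp12*, *Mmp13*, *Mmp14*, *Timp1*, *Timp2*, *Plau*, *Plaur* and *Adam8*. Their transcripts were measured by poly(A) RNA-seq in RAW264.7, a mouse macrophage-like line derived from a virus-induced tumour, in 6 conditions with 3 libraries each. The control received neither agent. TBHQ (tert-butylhydroquinone), a phenolic food antioxidant, was given at 5 µM for 4 h. LPS, a bacterial cell wall component that acts through TLR4, was given at 0.1 µg/mL for 12 h, and PIC (poly(I:C)), a mimic of viral double-stranded RNA, at 20 µg/mL for 12 h. In LPS+TBHQ and PIC+TBHQ the 4 h with TBHQ came before the 12 h with the stimulus. The 3 replicates of a condition are biological per the study's methods, all from 1 cell line. The study's design lists medium alone beside the 12 h stimuli and TBHQ alone at 4 h, and its methods text gives no time for the control. TBHQ and the time of harvest can therefore not be told apart in TBHQ against control, nor TBHQ and 4 more h in culture in the comparisons of a stimulus with and without it.

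Matrix metalloproteinases (MMPs) are zinc-dependent proteases that are made as inactive proenzymes and degrade collagens, gelatin, elastin and other matrix proteins. They are held in check by the TIMPs, which bind the active site. The plasminogen system runs alongside them: urokinase, bound to its receptor at the cell surface, turns plasminogen into plasmin, which degrades fibrin and can activate proMMPs. Macrophages are a major source of these proteases at sites of inflammation, where they act on matrix, cytokines and chemokines.

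Library depth was 14423390 to 18851626 counts, and a gene with 3 counts or fewer in a library was taken to be at the detection floor there, which covers counting error only. *Timp1* was at the floor in 11 of 18 libraries, *Mmp13* in 7 (the 3 control libraries, the 3 TBHQ libraries and 1 LPS+TBHQ library) and *Mmp14* in 2 TBHQ libraries. *Mmp9*, *Mmp12*, *Timp2*, *Plau*, *Plaur* and *Adam8* were above the floor in every library. Of the 9 genes, 8 passed the filter on low counts and were tested among 13691 genes. *Timp1* was not. Calls of a change rest on the quasi-likelihood test of edgeR, adjusted after Benjamini and Hochberg (BH) over all tested genes, at an adjusted p below 0.05. Levels are given as FPKM, which accounts for gene length and depth and in the authors' file also carries 1 constant per library. Differences are given as log2 fold changes (log2FC). Their standard error (SE) comes from the spread of the replicates' depth-scaled log2 counts (log2 CPM). A prior count of 2 in log2 CPM narrows this SE for genes of few counts, and the tests do not use this SE.

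The cell type markers were examined first. All 8 macrophage markers examined, among them *Lyz2*, *Adgre1* and *Csf1r*, were above the floor in every library, with a summed level of 6431, 6490 and 6116 FPKM in the control and 5797, 5879 and 5814 FPKM with TBHQ. It was 5922, 5714 and 6042 FPKM with LPS and 6475, 6713 and 6596 FPKM with LPS+TBHQ, and 5998, 6137 and 6237 FPKM with PIC and 6588, 6263 and 6681 FPKM with PIC+TBHQ. *Lyz2* was the most abundant of them in every library, with 4601 of the 6431 FPKM in control replicate 1, and the markers did not move as one. With LPS against the control 4 of the 8 rose (24.0% of all tested genes) and 3 fell (24.1%). With PIC 5 rose (28.6%) and 2 fell (30.1%). With TBHQ alone 1 of the 8 rose (14.2% of all tested genes) and 3 fell (14.8%). In LPS+TBHQ against LPS 3 rose (11.7%) and 3 fell (12.2%), as many as in PIC+TBHQ against PIC (15.8% and 15.5%). *Adgre1* fell in both (log2FC -0.34, SE 0.0314, edgeR quasi-likelihood test, BH-adjusted p = 5.47e-07 after LPS, and log2FC -0.53, SE 0.0377, adjusted p = 1.59e-11 after PIC), and *Csf1r* rose with TBHQ alone (log2FC 0.18, SE 0.0253, adjusted p = 0.00033). Markers of epithelial cells (0 to 0.0279 FPKM summed over 4 genes), fibroblasts (0 to 0.122 over 6) and lymphocytes (0.0118 to 0.338 over 6) were at or near 0. Neutrophil markers summed to 0 to 1.11 FPKM over 6 genes, led by *Camp*. The 1 neutrophil marker tested was called higher with LPS (log2FC 2.32) and with PIC (log2FC 1.79) against the control. Osteoclast markers were present, 7 of 8 above the floor, led by *Ctsk*. Their summed level was 365, 402 and 398 FPKM in the control libraries and 312, 329 and 314 FPKM with TBHQ. It was 348, 366 and 358 FPKM with LPS and 298, 312 and 315 FPKM with LPS+TBHQ. With PIC it was 349, 359 and 358 FPKM and with PIC+TBHQ 314, 311 and 309.8 FPKM. In each of these pairs every library with TBHQ lay below those without it, with *Ctsk* at 200.5 of the 365 FPKM in control replicate 1. Against the control, 1 of 7 tested osteoclast markers rose and 4 fell with LPS, and 2 rose and 5 fell with PIC. Of the same 7 markers 0 rose and 6 fell with TBHQ alone. In LPS+TBHQ against LPS 1 rose and 3 fell, and in PIC+TBHQ against PIC 1 rose and 5 fell. The one that rose with TBHQ before a stimulus was *Dcstamp* (log2FC 0.18, SE 0.0478, edgeR quasi-likelihood test, BH-adjusted p = 0.00636 after LPS, and log2FC 0.39, SE 0.0198, adjusted p = 2.23e-07 after PIC). The calls of these marker sets were not repeated under the alternatives. The part of any marker set in the results on the 9 genes was not tested. Fewer cells of a type and less RNA per cell cannot be told apart in these bulk libraries.

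*Nqo1*, *Gclm*, *Srxn1* and *Txnrd1*, antioxidant response genes, rose with TBHQ alone and in both TBHQ-plus-stimulus groups against the stimulus alone. *Gclm*, which encodes a subunit of the enzyme that starts glutathione synthesis, rose with TBHQ alone (log2FC 1.82, SE 0.0316, edgeR quasi-likelihood test, BH-adjusted p = 7.82e-29). *Hmox1*, heme oxygenase 1, rose with TBHQ alone (log2FC 2.09, SE 0.0469, edgeR quasi-likelihood test, BH-adjusted p = 3.49e-31) but fell in LPS+TBHQ against LPS (log2FC -0.30, SE 0.0403, adjusted p = 1.97e-08) and in PIC+TBHQ against PIC (log2FC -0.17, SE 0.0331, adjusted p = 0.000291). These 5 genes also rose with LPS alone, *Hmox1* with log2FC 2.33, SE 0.0457, edgeR quasi-likelihood test, BH-adjusted p = 1.36e-33, and all but *Nqo1* rose with PIC alone, *Hmox1* with log2FC 2.57, SE 0.0460, adjusted p = 3.16e-35. The LPS call of *Nqo1* (log2FC 1.98, SE 0.588, edgeR quasi-likelihood test, BH-adjusted p = 0.00561) was lost without LPS replicate 3 (log2FC 1.19, adjusted p = 0.154), and with PIC, where it did not pass (log2FC 1.17, SE 0.362, adjusted p = 0.132), limma on log2(FPKM + 0.1) called it higher (log2FC 0.84, adjusted p = 0.0443). *Nos2*, *Tnf* and *Ptgs2*, inflammatory genes, rose with LPS and with PIC, and fell when TBHQ came before either. With TBHQ alone *Tnf* (log2FC 0.68, SE 0.0754, edgeR quasi-likelihood test, BH-adjusted p = 5.64e-15) and *Ptgs2* (log2FC 1.35, SE 0.0643, adjusted p = 2.25e-20) rose, while *Nos2* fell (log2FC -0.18, SE 0.0746, adjusted p = 0.00817), a call lost without control replicate 3 or TBHQ replicate 2 (adjusted p = 0.0716 and 0.0683 in edgeR with BH adjustment).

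The 9 genes spanned a wide range of levels in the control, from 122 ± 5.24 FPKM (SD, n = 3) for *Adam8* to 0.0153 ± 0.0265 FPKM for *Mmp13*. Between them came *Plau* (83.1 ± 7.54 FPKM), *Plaur* (14.5 ± 1.45), *Mmp9* (9.91 ± 0.413), *Timp2* (0.9503 ± 0.0916), *Mmp12* (0.294 ± 0.0207), *Timp1* (0.114 ± 0.105) and *Mmp14* (0.0589 ± 0.00707). In this order each gene's libraries lay apart from those of the next, except *Timp1* and *Mmp14*. *Adam8* and *Plau* held the top places in all 6 conditions, although *Plau* and *Plaur* overlapped with PIC. With LPS, *Plaur* and *Mmp9* overlapped, as did *Timp2*, *Mmp13* and *Timp1* further down. With PIC, *Mmp12* and *Mmp14* overlapped and stood above *Mmp13*, *Timp2* and *Timp1*.

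Most of the 9 genes rose with a stimulus, and most of those tested fell when TBHQ came before it. With LPS against the control, 6 of the 8 tested genes rose, where 24.0% of all tested genes rose, and 1 fell (24.1% of all). With PIC, 7 rose (28.6% of all tested genes) and 1 fell (30.1%). TBHQ alone raised 2 (14.2%) and lowered 2 (14.8%). In LPS+TBHQ against the control 6 rose (21.2%) and 1 fell (22.5%), and in PIC+TBHQ against the control 7 rose (26.4%) and 0 fell (26.0%). Against the stimulus alone, LPS+TBHQ raised 1 of the 8 (11.7% of all tested genes) and lowered 5 (12.2%), while PIC+TBHQ raised 0 (15.8%) and lowered 7 (15.5%). PIC stood above LPS for 6 genes (14.9%) and below it for 0 (12.8%). The TBHQ change after PIC minus that after LPS, an interaction contrast, was called positive for 0 genes (0.833% of all) and negative for 2 (1.01%). For each count of 0 here, edgeR also found 0 of the 8 genes at an unadjusted p under 0.05 in that direction, and DESeq2 and limma on log2 FPKM called 0. Scaled by total library size, *Timp2* was called lower in PIC+TBHQ against the control and *Adam8* lower in PIC against LPS, and the 7 falls in PIC+TBHQ against PIC became 5, without *Mmp9* and *Adam8*.

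The 5 comparisons with the control share its 3 libraries. Over the 8 tested genes the median log2FC was 1.95 with LPS and 3.00 with PIC, or 1.75 and 2.93 without *Mmp13*, whose fitted value depends on the handling of low counts. The median of all tested genes was -0.004 and -0.015. In LPS+TBHQ and PIC+TBHQ against the control the 8 genes had a median of 2.21 and 2.69 (1.94 and 2.59 without *Mmp13*, -0.008 and -0.001 over all tested genes). With TBHQ alone it was -0.42 (-0.29 without *Mmp13*, 0 over all tested genes). In the direct comparisons it was -0.15 for LPS+TBHQ against LPS and -0.40 for PIC+TBHQ against PIC, or -0.12 and -0.32 without *Mmp13*, beside 0.002 and 0.009 over all tested genes. PIC against LPS had 0.79 (0.65 without *Mmp13*, -0.009 over all), and the interaction -0.03 (-0.05 without *Mmp13*, 0.009 over all). Scaled by total library size and not by TMM factors, the share of higher calls among all called genes moved from 49.8% to 35.0% with LPS, from 48.7% to 26.4% with PIC, from 48.4% to 36.1% in LPS+TBHQ against the control and from 50.4% to 30.0% in PIC+TBHQ against the control. It moved from 48.9% to 59.5% in LPS+TBHQ against LPS, from 50.6% to 70.3% in PIC+TBHQ against PIC and from 53.7% to 18.4% in PIC against LPS. For the interaction it was 45.2%, and 76.1% with total library size, 35.1% with RLE factors, 29.8% in DESeq2 and 32.5% in limma on log2(FPKM + 1). The same change of scaling moved the median log2FC of all genes by -0.22 with PIC, by -0.15 in PIC+TBHQ against the control and by -0.13 in PIC against LPS.

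**Figure D1:**
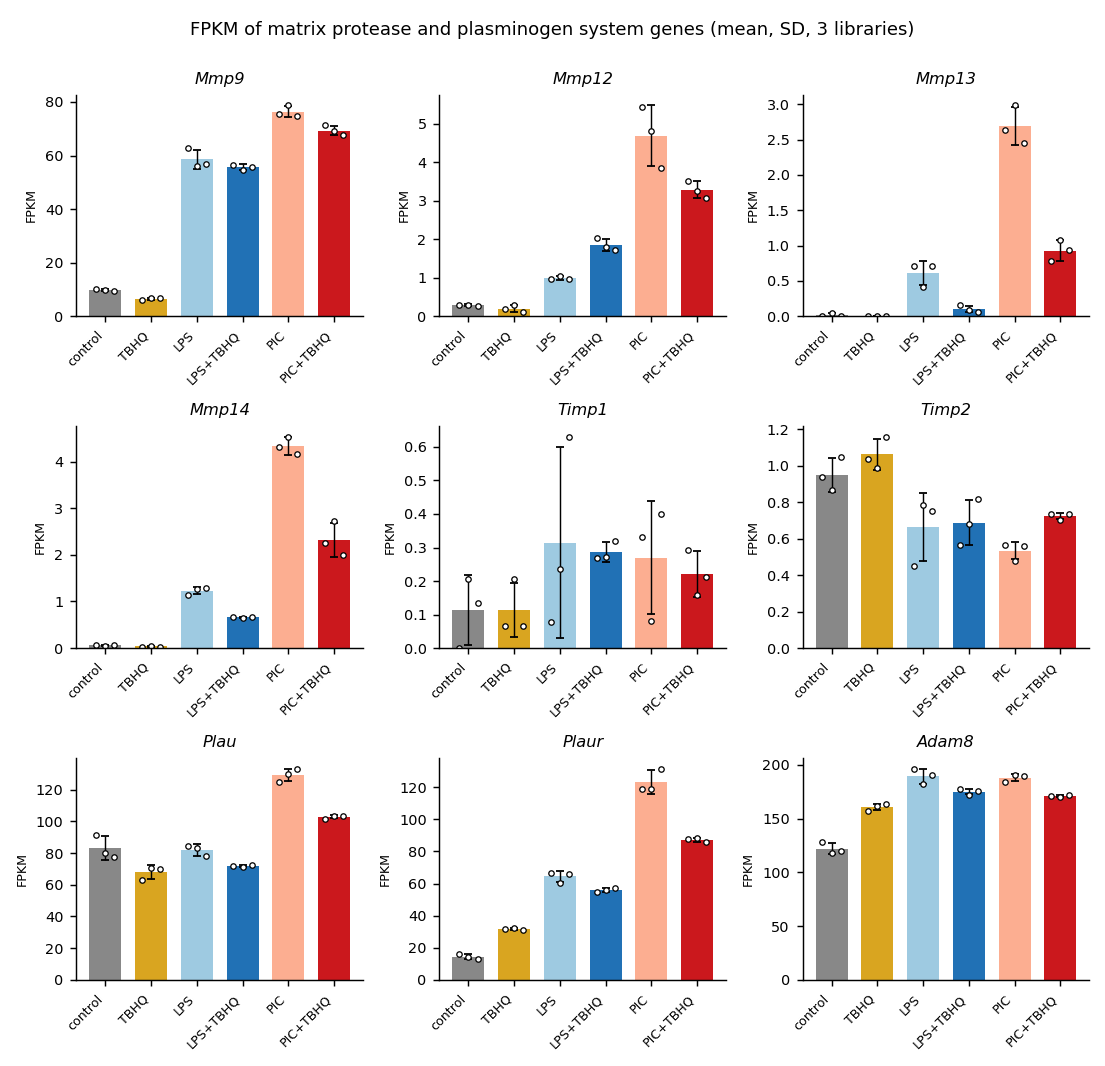
FPKM of each of the 9 genes in every library (points) with the group mean and SD (bar), by condition, each panel on a linear axis from 0. *Mmp9* stands at 10.4, 9.76 and 9.60 FPKM in the control libraries and at 75.4, 78.8 and 74.9 FPKM with PIC, and *Timp2* at 0.936, 0.866 and 1.05 and 0.564, 0.480 and 0.561 FPKM.

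*Mmp9* (ENSMUSG00000017737, chr2:164782700-164797770, plus strand) encodes gelatinase B, which degrades denatured collagen and type IV collagen. It stood at 10.4, 9.76 and 9.60 FPKM in the control libraries and at 6.07, 6.76 and 6.71 FPKM with TBHQ alone. With LPS the libraries held 62.7, 56.2 and 56.9 FPKM, and with LPS+TBHQ 56.5, 54.4 and 55.9 FPKM. With PIC they held 75.4, 78.8 and 74.9 FPKM, and with PIC+TBHQ 71.3, 69.0 and 67.7 FPKM. All stimulated libraries lay far above the control, all TBHQ libraries lay below it, and the LPS and LPS+TBHQ libraries overlapped. *Mmp9* rose 5.88-fold with LPS (log2FC 2.56, SE 0.0597, edgeR quasi-likelihood test, BH-adjusted p = 4.80e-31) and 7.62-fold with PIC (log2FC 2.93, SE 0.0423, adjusted p = 1.89e-33). PIC stood above LPS in every library (log2FC 0.37, SE 0.0538, edgeR quasi-likelihood test, BH-adjusted p = 6.88e-09). TBHQ alone lowered it (log2FC -0.61, SE 0.0604, edgeR quasi-likelihood test, BH-adjusted p = 4.56e-10). Against PIC alone, PIC+TBHQ was lower in every library by a small amount (log2FC -0.13, SE 0.0321, edgeR quasi-likelihood test, BH-adjusted p = 0.0151). This call was lost with total library size (log2FC -0.06, adjusted p = 0.273) and without PIC+TBHQ replicate 3 (log2FC -0.12, adjusted p = 0.0649), over a range of 0.00384 to 0.273 in the alternatives, all from edgeR, DESeq2 or limma with BH adjustment. LPS+TBHQ against LPS did not pass the test (log2FC -0.08, SE 0.0509, edgeR quasi-likelihood test, BH-adjusted p = 0.196), and the TBHQ changes after PIC and after LPS did not differ detectably (interaction log2FC -0.05, SE 0.0602, adjusted p = 0.762). Both groups with TBHQ and a stimulus stayed above the control, LPS+TBHQ with log2FC 2.48, SE 0.0386, edgeR quasi-likelihood test, BH-adjusted p = 1.44e-30 and PIC+TBHQ with log2FC 2.80, SE 0.0413, adjusted p = 1.24e-32.

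Over the 23 MMP genes examined, the summed FPKM was 12.8 ± 0.595 in the control (SD, n = 3) and 8.65 ± 0.671 with TBHQ, then 63.9 ± 3.61 with LPS and 90.0 ± 3.20 with PIC. The mean share of *Mmp9* in it was 77.7% in the control and 75.4% with TBHQ, and it was 91.7% with LPS and 84.8% with PIC. With LPS+TBHQ the sum was 60.7 ± 1.72 and the *Mmp9* share 91.6%, and with PIC+TBHQ they were 78.6 ± 2.12 and 88.2%. The shares were not tested.

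*Mmp12* (ENSMUSG00000049723, chr9:7344381-7369499, plus strand) encodes macrophage metalloelastase, which degrades elastin. It was low in the control, at 0.306, 0.305 and 0.270 FPKM, and in the TBHQ libraries, at 0.195, 0.296 and 0.114 FPKM. With LPS it stood at 0.972, 1.05 and 0.966 FPKM and with LPS+TBHQ at 2.02, 1.81 and 1.72 FPKM. With PIC it stood at 5.42, 4.80 and 3.85 FPKM and with PIC+TBHQ at 3.52, 3.26 and 3.08 FPKM. Every LPS+TBHQ library lay above every LPS library, whereas every PIC+TBHQ library lay below every PIC library. The TBHQ and control libraries overlapped. LPS raised *Mmp12* (log2FC 1.75, SE 0.0696, edgeR quasi-likelihood test, BH-adjusted p = 1.27e-09), and PIC raised it further (log2FC 3.97, SE 0.156, adjusted p = 3.31e-22; PIC against LPS log2FC 2.22, SE 0.151, adjusted p = 3.86e-16). TBHQ before LPS raised it 1.85-fold over LPS alone (log2FC 0.89, SE 0.0791, edgeR quasi-likelihood test, BH-adjusted p = 5.33e-06), the only one of the 8 tested genes that rose in this comparison. TBHQ before PIC lowered it (log2FC -0.50, SE 0.155, edgeR quasi-likelihood test, BH-adjusted p = 0.000467), and the interaction contrast was negative (log2FC -1.39, SE 0.174, adjusted p = 3.05e-06). DESeq2 gave the interaction a log2FC of -1.41 at an unadjusted p of 5.88e-14 and no adjusted p. Against the control, *Mmp12* rose in LPS+TBHQ (log2FC 2.64, SE 0.0895, edgeR quasi-likelihood test, BH-adjusted p = 2.29e-15) and in PIC+TBHQ (log2FC 3.48, SE 0.0792, adjusted p = 7.78e-20). With TBHQ alone the difference from the control did not pass the test (log2FC -0.55, SE 0.370, edgeR quasi-likelihood test, BH-adjusted p = 0.112). It passed without TBHQ replicate 2, the highest of the TBHQ libraries (log2FC -0.93, adjusted p = 0.016 in edgeR, beside 0.016 to 0.515 over the alternatives).

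*Mmp13* (ENSMUSG00000050578, chr9:7272514-7283331, plus strand), the main collagenase of rodents, was at the floor without a stimulus. The control libraries held 0, 2 and 0 counts and the TBHQ libraries 0, 0 and 0 counts, so no fold is given between them. With LPS it had 27, 16 and 27 counts and with LPS+TBHQ 7, 4 and 3 counts. With PIC it had 96, 111 and 111 counts and with PIC+TBHQ 32, 41 and 40 counts. The groups with TBHQ before a stimulus lay below that stimulus alone in every library, and 1 LPS+TBHQ library was at the floor. From the 2 counts of the control group, the depth-scaled ratio to the control was 39.4 (exact 95% counting interval 10.5 to 332) with LPS and 171 (exact 95% counting interval 47.1 to 1422) with PIC. It was 6.63 (exact 95% counting interval 1.52 to 60.1) with LPS+TBHQ and 59.9 (exact 95% counting interval 16.2 to 501) with PIC+TBHQ. The tests against the control gave adjusted p = 1.38e-08 for LPS, 3.78e-15 for PIC, 0.0179 for LPS+TBHQ and 1.37e-10 for PIC+TBHQ in the edgeR quasi-likelihood test with BH adjustment. Both control counts came from replicate 2. Without it the fitted log2FC, which then rests on how counts of 0 are handled, moved from 5.05 to 7.68 for LPS, from 7.18 to 9.81 for PIC, from 2.52 to 5.15 for LPS+TBHQ and from 5.66 to 8.29 for PIC+TBHQ. The LPS+TBHQ call was lost in limma on log2(FPKM + 1) (adjusted p = 0.236) and in edgeR without control replicate 1 (log2FC 2.04, adjusted p = 0.073), control replicate 3 (log2FC 1.98, adjusted p = 0.0849) or LPS+TBHQ replicate 1 (log2FC 2.11, adjusted p = 0.095), in a range of 0.00394 to 0.236 over its alternatives.

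TBHQ lowered *Mmp13* after both stimuli. It fell 5.80-fold in LPS+TBHQ against LPS (log2FC -2.54, SE 0.345, edgeR quasi-likelihood test, BH-adjusted p = 1.53e-05), the largest fall among the 8 tested genes in that comparison. In PIC+TBHQ against PIC it fell 2.87-fold (log2FC -1.52, SE 0.152, edgeR quasi-likelihood test, BH-adjusted p = 7.15e-06), again the largest fall of the 8. The interaction did not pass the test (log2FC 1.02, SE 0.377, edgeR quasi-likelihood test, BH-adjusted p = 0.353). PIC stood above LPS in every library (log2FC 2.12, SE 0.247, edgeR quasi-likelihood test, BH-adjusted p = 7.84e-08).

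*Mmp14* (ENSMUSG00000000957, chr14:54669069-54682821, plus strand) encodes MT1-MMP, a membrane-bound collagenase that also activates proMMP-2. The control libraries held 6, 5 and 6 counts and the TBHQ libraries 3, 5 and 3 counts. With LPS it stood at 1.15, 1.26 and 1.28 FPKM and with LPS+TBHQ at 0.672, 0.636 and 0.660 FPKM. With PIC it stood at 4.30, 4.53 and 4.15 FPKM and with PIC+TBHQ at 2.25, 2.72 and 2.00 FPKM. No library of a TBHQ-plus-stimulus group reached the level of the stimulus alone, and all stimulated libraries lay above the control. *Mmp14* rose 20.4-fold with LPS (log2FC 4.35, SE 0.0902, edgeR quasi-likelihood test, BH-adjusted p = 7.15e-18) and 71.1-fold with PIC (log2FC 6.15, SE 0.0830, adjusted p = 3.83e-25). It fell with TBHQ after LPS (log2FC -0.91, SE 0.0558, edgeR quasi-likelihood test, BH-adjusted p = 6.56e-06) and after PIC (log2FC -0.89, SE 0.132, adjusted p = 2.45e-08), with an interaction of 0.01 (SE 0.143, adjusted p = 0.979). It still rose over the control in LPS+TBHQ (log2FC 3.44, SE 0.0777, edgeR quasi-likelihood test, BH-adjusted p = 1.23e-13) and in PIC+TBHQ (log2FC 5.26, SE 0.146, adjusted p = 7.66e-22). With TBHQ alone all 3 libraries lay below the control in CPM, but the difference did not pass the test (log2FC -0.67, SE 0.187, edgeR quasi-likelihood test, BH-adjusted p = 0.383). PIC stood above LPS (log2FC 1.80, SE 0.0630, edgeR quasi-likelihood test, BH-adjusted p = 7.47e-15).

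**Figure D2:**
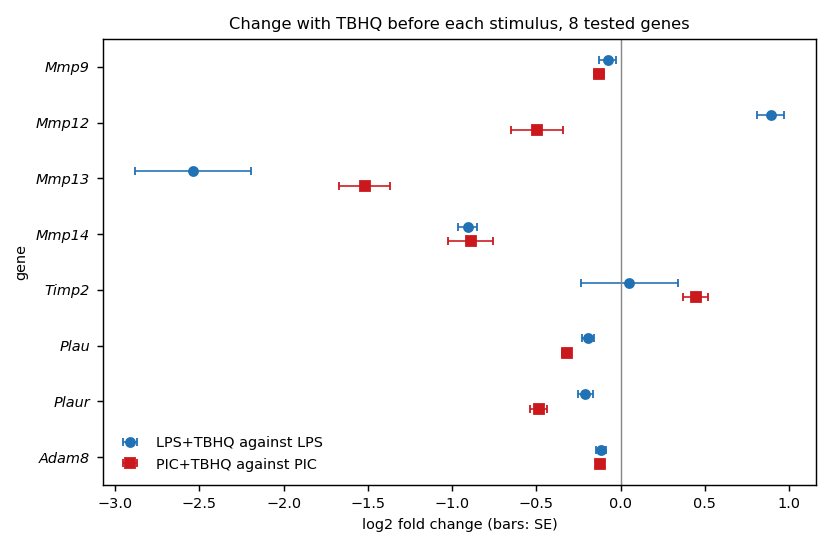
Log2 fold change with TBHQ before each stimulus for the 8 tested genes, LPS+TBHQ against LPS (circles) and PIC+TBHQ against PIC (squares), with bars for the SE (n = 3 libraries per group). The prior count narrows these bars for genes of few counts. *Mmp12* lies at 0.89 after LPS and -0.50 after PIC, and *Mmp13* at -2.54 and -1.52.

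Of the 19 other MMP genes, 3 passed the filter on low counts (*Mmp3*, *Mmp19* and *Mmp23*). Another 9 were at the floor in every library, and of these *Mmp1a*, *Mmp16* and *Mmp20* had no count. *Mmp19* held 125, 97 and 138 counts in the control libraries, 50, 31 and 41 with PIC and 90, 78 and 93 with PIC+TBHQ. The PIC libraries were the lowest of these, and the PIC+TBHQ libraries lay between them and the control. It fell with PIC (log2FC -1.45, SE 0.259, edgeR quasi-likelihood test, BH-adjusted p = 3.07e-08) and rose in PIC+TBHQ against PIC (log2FC 1.06, SE 0.215, adjusted p = 5.23e-05). *Mmp23* had 7, 4 and 11 counts in the control, 21, 18 and 11 with LPS and 11, 17 and 18 with PIC, and rose with LPS (log2FC 1.34, SE 0.398, edgeR quasi-likelihood test, BH-adjusted p = 0.00815) and with PIC (log2FC 1.16, SE 0.346, adjusted p = 0.0196). The LPS call was lost without control replicate 2 (log2FC 1.05, adjusted p = 0.0636) or LPS replicate 1 (log2FC 1.14, adjusted p = 0.0557), and the PIC call without control replicate 2 (log2FC 0.86, adjusted p = 0.117) or PIC replicate 2 (log2FC 1.04, adjusted p = 0.0705) and with total library size (log2FC 0.94, adjusted p = 0.0525), all in edgeR with BH adjustment. *Mmp3*, stromelysin 1, had 0, 0 and 0 counts in the control libraries and 12, 16 and 9 with PIC, at least 4.55-fold higher against a floor of 3 counts per library.

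Among the inhibitors, *Timp2* (ENSMUSG00000017466, chr11:118191895-118246566, minus strand), which inhibits MMPs and takes part in the activation of proMMP-2 by MT1-MMP, stood at 0.936, 0.866 and 1.05 FPKM in the control libraries and 1.04, 0.989 and 1.16 FPKM with TBHQ. With LPS it stood at 0.452, 0.786 and 0.754 FPKM and with LPS+TBHQ at 0.568, 0.680 and 0.819 FPKM. With PIC it stood at 0.564, 0.480 and 0.561 FPKM and with PIC+TBHQ at 0.735, 0.705 and 0.736 FPKM. The control and TBHQ libraries overlapped and were the highest, and all stimulated libraries lay below the control. *Timp2* fell with PIC (log2FC -0.84, SE 0.104, edgeR quasi-likelihood test, BH-adjusted p = 0.00107) and, by a smaller margin, with LPS (log2FC -0.52, SE 0.257, adjusted p = 0.0382). The LPS call was lost without LPS replicate 1, its lowest library (log2FC -0.31, adjusted p = 0.273), control replicate 3 (log2FC -0.45, adjusted p = 0.132) or control replicate 1 (log2FC -0.54, adjusted p = 0.0647). It was also lost in DESeq2 (adjusted p = 0.0625), with no filter on low counts (adjusted p = 0.0732) and in a fit to the 2 conditions alone (adjusted p = 0.0605), within 0.0144 to 0.273 over its edgeR, DESeq2 and limma alternatives with BH adjustment. In LPS+TBHQ against the control it did not pass (log2FC -0.47, SE 0.165, edgeR quasi-likelihood test, BH-adjusted p = 0.0591), but it did with total library size (adjusted p = 0.0297), in limma on log2(FPKM + 1) (adjusted p = 0.0358) and in edgeR without LPS replicate 1 (log2FC -0.47, adjusted p = 0.0457) or LPS+TBHQ replicate 3 (log2FC -0.62, adjusted p = 0.0321), within 0.0297 to 0.232. PIC+TBHQ against the control did not pass either (log2FC -0.40, SE 0.0793, edgeR quasi-likelihood test, BH-adjusted p = 0.106), except with total library size (adjusted p = 0.0227, beside 0.0227 to 0.276 over its alternatives). Every PIC+TBHQ library lay above every PIC library, yet the difference did not pass the test (log2FC 0.45, SE 0.0744, edgeR quasi-likelihood test, BH-adjusted p = 0.139). LPS+TBHQ against LPS had log2FC 0.05, SE 0.286, edgeR quasi-likelihood test, BH-adjusted p = 0.903. TBHQ against the control (log2FC 0.16, SE 0.0998, edgeR quasi-likelihood test, BH-adjusted p = 0.598), PIC against LPS (log2FC -0.32, SE 0.256, adjusted p = 0.344) and the interaction (log2FC 0.39, SE 0.295, adjusted p = 0.632) did not pass.

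*Timp1* (ENSMUSG00000001131, chrX:20736405-20740974, plus strand), a secreted inhibitor of most MMPs, had 0, 3 and 2 counts in the control libraries, 1, 3 and 1 with TBHQ, 1, 3 and 8 with LPS and 4, 4 and 5 with LPS+TBHQ. It had 4, 1 and 6 counts with PIC and 4, 2 and 3 with PIC+TBHQ. The highest library, with LPS, stood above its 2 replicates, and the LPS and control libraries overlapped. All LPS+TBHQ libraries lay above the control. A change in *Timp1* was not detectable at this depth: in a fit with no filter on low counts its smallest adjusted p over the 9 contrasts was 0.385 (edgeR with BH adjustment, LPS against the control). The gene lies wholly inside *Syn1*, on the opposite strand, which had 78 to 152 counts. The study's methods call the libraries strand-specific, while the deposited labels name both directional and non-directional ones. Whether the counting used strand is not given in the sources used here, so reads of the pair cannot be told apart. *Timp1* and *Timp2* together stood at 1.06 ± 0.123 FPKM in the control (SD, n = 3), 0.979 ± 0.428 with LPS and 0.805 ± 0.214 with PIC, where the 4 MMPs summed to 10.3, 61.4 and 88.1 FPKM. The 5 other metalloproteinase inhibitors examined were at the floor in every library, with no count for *Timp3*, *Timp4* and *A2m*.

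*Plau* (ENSMUSG00000021822, chr14:20886728-20893453, plus strand) encodes urokinase, the serine protease that activates plasminogen. It was high without a stimulus, at 91.7, 80.0 and 77.5 FPKM in the control libraries, and stood at 62.8, 70.7 and 70.0 FPKM with TBHQ. With LPS it stood at 84.7, 83.4 and 77.9 FPKM and with LPS+TBHQ at 72.1, 71.1 and 72.2 FPKM. With PIC it stood at 125, 130.1 and 133 FPKM and with PIC+TBHQ at 102, 104 and 103 FPKM. The LPS and control libraries overlapped, the PIC libraries were the highest, and each group with TBHQ lay below its counterpart without it. *Plau* rose with PIC (log2FC 0.62, SE 0.0789, edgeR quasi-likelihood test, BH-adjusted p = 7.57e-14) and did not pass the test with LPS (log2FC -0.03, SE 0.0834, adjusted p = 0.697), where total library size gave a fall (log2FC -0.11, adjusted p = 0.0431, within 0.0431 to 0.972 over the alternatives). PIC against LPS had log2FC 0.65, SE 0.0443, edgeR quasi-likelihood test, BH-adjusted p = 2.80e-13. TBHQ lowered it alone (log2FC -0.29, SE 0.0920, edgeR quasi-likelihood test, BH-adjusted p = 1.05e-05), before LPS (log2FC -0.19, SE 0.0373, adjusted p = 0.00267) and before PIC (log2FC -0.32, SE 0.0261, adjusted p = 1.37e-06). All these falls were to no less than 0.802 times the level without TBHQ, and the interaction did not pass (log2FC -0.13, SE 0.0455, edgeR quasi-likelihood test, BH-adjusted p = 0.403). Set against the control, *Plau* fell in LPS+TBHQ (log2FC -0.22, SE 0.0752, edgeR quasi-likelihood test, BH-adjusted p = 0.000285) and rose in PIC+TBHQ (log2FC 0.30, SE 0.0753, adjusted p = 1.41e-06).

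*Plaur* (ENSMUSG00000046223, chr7:24161909-24175393, plus strand) encodes the GPI-anchored urokinase receptor. The control libraries held 16.1, 14.1 and 13.2 FPKM and the TBHQ libraries 31.9, 32.6 and 31.1 FPKM. With LPS it stood at 66.7, 60.6 and 65.9 FPKM and with LPS+TBHQ at 54.5, 55.8 and 57.0 FPKM. With PIC it stood at 119, 119 and 132 FPKM and with PIC+TBHQ at 87.6, 88.4 and 85.8 FPKM. No group overlapped the control, and within each stimulus the TBHQ libraries were the lower ones. TBHQ alone raised *Plaur* 2.20-fold (log2FC 1.14, SE 0.0852, edgeR quasi-likelihood test, BH-adjusted p = 6.92e-18), the largest rise of the 8 tested genes with TBHQ. LPS raised it 4.43-fold (log2FC 2.15, SE 0.0924, edgeR quasi-likelihood test, BH-adjusted p = 2.09e-27) and PIC 8.43-fold (log2FC 3.08, SE 0.0957, adjusted p = 7.86e-33). PIC stood above LPS (log2FC 0.93, SE 0.0633, edgeR quasi-likelihood test, BH-adjusted p = 6.89e-18). The rise over the control remained in LPS+TBHQ (log2FC 1.94, SE 0.0849, edgeR quasi-likelihood test, BH-adjusted p = 5.58e-26) and PIC+TBHQ (log2FC 2.59, SE 0.0835, adjusted p = 2.98e-30). TBHQ before the stimulus lowered it, after LPS (log2FC -0.21, SE 0.0454, edgeR quasi-likelihood test, BH-adjusted p = 0.00101) and more after PIC (log2FC -0.49, SE 0.0495, adjusted p = 1.02e-10). The interaction passed the test (log2FC -0.28, SE 0.0671, edgeR quasi-likelihood test, BH-adjusted p = 0.017), but not in limma on log2(FPKM + 1) (adjusted p = 0.0963) or log2(FPKM + 0.1) (adjusted p = 0.113), nor in edgeR without LPS+TBHQ replicate 3 (log2FC -0.26, adjusted p = 0.0548), in a range of 0.000255 to 0.113 over its alternatives.

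*Serpinb2* encodes PAI-2, a mostly intracellular inhibitor of urokinase. It had 0, 0 and 0 counts in the control libraries and 2, 0 and 0 with TBHQ. With LPS it had 182, 178 and 142 counts and with LPS+TBHQ 15, 18 and 18. With PIC it had 1034, 1009 and 1209 counts and with PIC+TBHQ 239, 224 and 245. Against a floor of 3 counts per library it was at least 62.7-fold higher after LPS and at least 389.9-fold after PIC. In LPS+TBHQ it was at least 5.36-fold and in PIC+TBHQ at least 83.3-fold higher. TBHQ lowered it after LPS (log2FC -3.54, SE 0.135, edgeR quasi-likelihood test, BH-adjusted p = 9.93e-18) and after PIC (log2FC -2.23, SE 0.0290, adjusted p = 8.55e-20), with no overlap between libraries. *Serpine2*, *Serpina5* and *Cpb2*, which also encode inhibitors in this system, were at the floor in every library, and *Serpinf2* was not tested.

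**Figure D3:**
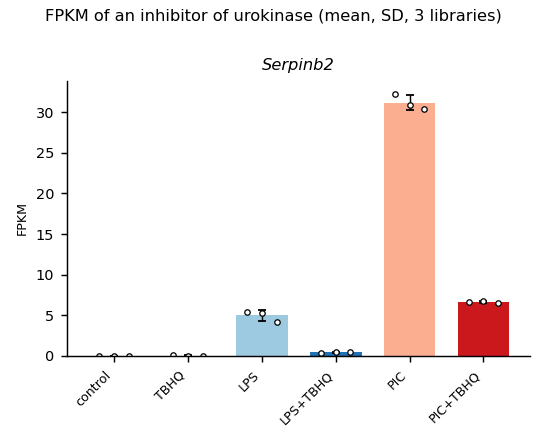
FPKM of *Serpinb2* in every library (points) with group means and SD (bars), by condition, on a linear axis from 0. It stands at 5.45, 5.28 and 4.23 FPKM with LPS and 0.382, 0.461 and 0.437 with LPS+TBHQ, and at 32.2, 30.9 and 30.4 with PIC and 6.62, 6.71 and 6.50 with PIC+TBHQ.

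Plasminogen itself (*Plg*) and vitronectin (*Vtn*) had no count in any library, and *Plat*, tissue plasminogen activator, had 0 to 6 counts. Of the 12 other genes of the plasminogen system examined, 8 were tested. With LPS 6 rose and 1 fell, with PIC 6 rose and 1 fell, and with TBHQ alone 2 rose and 3 fell. Of all tested genes 24.0% rose and 24.1% fell with LPS, 28.6% and 30.1% with PIC, and 14.2% and 14.8% with TBHQ alone. Scaled by total library size these counts were 5 and 1, 6 and 2, and 2 and 3, and with RLE factors 2 fell with TBHQ. The 8 genes had a median log2FC of 0.32 with LPS and 0.38 with PIC, beside -0.004 and -0.015 over all tested genes. TBHQ before the stimulus lowered 3 of the 8 after LPS (12.2% of all tested genes) and 4 after PIC (15.5%), or 3 and 2 with total library size, where 1 also rose in each. *Itgam*, the alpha subunit of the Mac-1 integrin that binds the urokinase receptor, rose with LPS (log2FC 0.96, SE 0.0873, edgeR quasi-likelihood test, BH-adjusted p = 3.16e-16) and PIC (log2FC 1.25, SE 0.0454, adjusted p = 4.54e-20) and fell with TBHQ alone (log2FC -0.41, SE 0.0560, adjusted p = 3.61e-06). *Itgav*, the alpha subunit of the vitronectin receptor, stood at 14.7, 15.2 and 14.7 FPKM with LPS and 9.68, 9.56 and 9.03 FPKM with LPS+TBHQ. It stood at 27.7, 25.6 and 27.0 FPKM with PIC and 13.1, 14.4 and 14.2 FPKM with PIC+TBHQ. These pairs of groups did not overlap, and *Itgav* fell in LPS+TBHQ against LPS (log2FC -0.66, SE 0.0340, edgeR quasi-likelihood test, BH-adjusted p = 2.76e-14) and in PIC+TBHQ against PIC (log2FC -0.93, SE 0.0531, adjusted p = 6.10e-19). *Lrp1*, an endocytic receptor for many proteases, rose with TBHQ alone (log2FC 0.30, SE 0.0436, edgeR quasi-likelihood test, BH-adjusted p = 1.57e-08). *S100a10* and *Anxa2*, which together form a plasminogen receptor, also changed. *S100a10* fell in LPS+TBHQ against LPS (log2FC -0.14, SE 0.0405, edgeR quasi-likelihood test, BH-adjusted p = 0.0052) and in PIC+TBHQ against PIC (log2FC -0.14, SE 0.0397, adjusted p = 0.00193), and so did *Anxa2* (log2FC -0.12, SE 0.0326, adjusted p = 0.00572 after LPS, and log2FC -0.19, SE 0.0277, adjusted p = 1.83e-05 after PIC). The *S100a10* call after PIC was lost with total library size (log2FC -0.08, adjusted p = 0.102 in edgeR with BH adjustment).

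*Adam8* (ENSMUSG00000025473, chr7:139558845-139572475, minus strand), a membrane-bound metalloprotease of myeloid cells that sheds cell surface proteins, was the most abundant of the 9 genes. It stood at 128, 118 and 120 FPKM in the control libraries and 157, 162 and 163 FPKM with TBHQ. With LPS it stood at 196, 182 and 190.5 FPKM and with LPS+TBHQ at 177, 172 and 176 FPKM. With PIC it stood at 184, 190.4 and 189 FPKM and with PIC+TBHQ at 171, 170.4 and 172 FPKM. All treated libraries lay above the control, and the LPS and PIC libraries overlapped. *Adam8* rose with TBHQ alone (log2FC 0.40, SE 0.0391, edgeR quasi-likelihood test, BH-adjusted p = 5.77e-12), LPS (log2FC 0.63, SE 0.0459, adjusted p = 2.76e-18) and PIC (log2FC 0.61, SE 0.0385, adjusted p = 3.83e-18). PIC against LPS did not pass the test (log2FC -0.02, SE 0.0316, edgeR quasi-likelihood test, BH-adjusted p = 0.687), except as a fall with total library size (log2FC -0.15, adjusted p = 0.000187, beside 0.000187 to 0.97 over the alternatives). TBHQ lowered it slightly after LPS (log2FC -0.12, SE 0.0310, edgeR quasi-likelihood test, BH-adjusted p = 0.00726) and after PIC (log2FC -0.12, SE 0.0150, adjusted p = 0.00323). Over the control it rose in LPS+TBHQ (log2FC 0.51, SE 0.0380, edgeR quasi-likelihood test, BH-adjusted p = 1.20e-15) and PIC+TBHQ (log2FC 0.48, SE 0.0366, adjusted p = 3.25e-15), and the interaction did not pass (log2FC -0.01, SE 0.0345, adjusted p = 0.965). The call after LPS was lost without LPS replicate 1 (log2FC -0.09, adjusted p = 0.0598, beside 0.00186 to 0.0598), and the call after PIC with total library size (log2FC -0.05, adjusted p = 0.186, beside 0.0001 to 0.186), all in edgeR, DESeq2 or limma with BH adjustment.

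Of 16 other ADAM and ADAMTS genes and their rhomboid regulators, 10 were tested and 6 were at the floor in every library. With LPS 5 of the 10 rose and 2 fell, and with PIC 5 rose and 2 fell (4 and 3, and 5 and 5, with total library size, and 6 and 2 for PIC with RLE factors). Over all tested genes 24.0% rose and 24.1% fell with LPS, and 28.6% and 30.1% with PIC. With TBHQ alone 3 of the 10 rose (14.2% of all, and 4 of the 10 in DESeq2) and 1 fell (14.8%). The 10 genes had a median log2FC of 0.35 and 0.41, beside -0.004 and -0.015 over all. In LPS+TBHQ against LPS 2 rose (11.7% of all) and 2 fell (12.2%), and in PIC+TBHQ against PIC 1 rose (15.8%) and 2 fell (15.5%), or 3 and 2 with total library size and 1 and 3 with RLE factors or in DESeq2. *Adam15* rose in both (log2FC 0.18, SE 0.0492, edgeR quasi-likelihood test, BH-adjusted p = 0.00072 after LPS, and log2FC 0.35, SE 0.0320, adjusted p = 1.69e-08 after PIC). *Adam33* rose with LPS (log2FC 2.68, SE 0.423, edgeR quasi-likelihood test, BH-adjusted p = 1.23e-09) and with PIC (log2FC 3.22, SE 0.460, adjusted p = 2.72e-12), and fell in LPS+TBHQ against LPS (log2FC -1.18, SE 0.273, adjusted p = 0.000332) and PIC+TBHQ against PIC (log2FC -1.07, SE 0.223, adjusted p = 0.000249). Its counts were 27, 15 and 10 in the control, 103, 112 and 84 with LPS and 162, 161 and 126 with PIC. *Adamts1*, a secreted protease that cleaves aggrecan and versican, rose with LPS (log2FC 1.16, SE 0.0845, edgeR quasi-likelihood test, BH-adjusted p = 2.65e-19) and PIC (log2FC 2.33, SE 0.0754, adjusted p = 1.62e-29), and fell with TBHQ alone (log2FC -0.82, SE 0.0833, adjusted p = 1.76e-12) and before each stimulus (log2FC -0.37, SE 0.0411, adjusted p = 5.50e-07 after LPS, and log2FC -0.56, adjusted p = 4.04e-12 after PIC). *Rhbdf2*, which carries ADAM17 to the cell surface, rose with TBHQ alone (log2FC 0.65, SE 0.0867, edgeR quasi-likelihood test, BH-adjusted p = 9.32e-12).

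The cysteine cathepsins and cystatins, lysosomal proteases and their inhibitors, were split. Of 7 tested, 3 rose and 3 fell with LPS, 4 rose and 3 fell with PIC, and 4 fell with TBHQ alone (3 and 4, 3 and 3, and 5 with total library size). The shares over all tested genes were 24.0% and 24.1%, 28.6% and 30.1%, and 14.8%. *Ctsl* and *Ctsz*, which encode cathepsins L and Z, rose with PIC (log2FC 0.92, SE 0.0432, edgeR quasi-likelihood test, BH-adjusted p = 5.84e-24 for *Ctsl*, and log2FC 0.59, SE 0.0253, adjusted p = 2.34e-18 for *Ctsz*). With TBHQ before the stimulus 1 of the 7 rose and 3 fell after LPS (11.7% and 12.2% of all), and 1 rose and 2 fell after PIC (15.8% and 15.5%), or 0 and 3 there with RLE factors and 1 and 3 in DESeq2. The gene that rose was *Ctsl* (log2FC 0.13, SE 0.0186, edgeR quasi-likelihood test, BH-adjusted p = 0.00123 after LPS, and log2FC 0.09, SE 0.0239, adjusted p = 0.019 after PIC). Its PIC call was lost with RLE factors (adjusted p = 0.0512), with a mean of at least 50 counts (adjusted p = 0.0546) and without PIC replicate 1 (adjusted p = 0.129) or 3 (adjusted p = 0.183), or PIC+TBHQ replicate 2 (adjusted p = 0.083) or 3 (adjusted p = 0.0589), all in edgeR with BH adjustment. *Ctss*, an elastolytic cathepsin of antigen-presenting cells, fell in LPS+TBHQ against LPS (log2FC -0.40, SE 0.0447, edgeR quasi-likelihood test, BH-adjusted p = 8.26e-12) and in PIC+TBHQ against PIC (log2FC -0.38, SE 0.0234, adjusted p = 2.45e-11). *Ctsk*, the collagenolytic cathepsin of osteoclasts, fell with TBHQ alone (log2FC -0.27, SE 0.0345, edgeR quasi-likelihood test, BH-adjusted p = 4.49e-07).

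Of 7 activators and partners of these proteases, 6 were tested and 5 rose with LPS (24.0% of all tested genes) and with PIC (28.6%), or 4 with LPS under total library size. TBHQ lowered 5 of the 6 after either stimulus (12.2% of all after LPS and 15.5% after PIC). With TBHQ alone 2 of the 6 rose (14.2% of all) and 3 fell (14.8%), and *Furin* (log2FC 0.37, SE 0.0323, edgeR quasi-likelihood test, BH-adjusted p = 5.76e-08) and *Cd44* (log2FC 0.20, SE 0.0227, adjusted p = 2.31e-05) were the ones that rose. *Furin*, the proprotein convertase that activates proMMP-14, rose with PIC (log2FC 1.72, SE 0.0238, edgeR quasi-likelihood test, BH-adjusted p = 9.97e-28) and fell in PIC+TBHQ against PIC (log2FC -0.70, SE 0.0229, adjusted p = 8.97e-16). *Lcn2*, whose product binds MMP-9 and protects it from degradation, fell with TBHQ alone (log2FC -2.50, SE 0.237, edgeR quasi-likelihood test, BH-adjusted p = 1.23e-19) and rose with LPS (log2FC 2.68, SE 0.149, adjusted p = 5.30e-27) and PIC (log2FC 3.03, SE 0.142, adjusted p = 4.27e-29). *Cd44*, a hyaluronan receptor that can dock MMP-9 at the cell surface, fell in PIC+TBHQ against PIC (log2FC -0.62, SE 0.0243, edgeR quasi-likelihood test, BH-adjusted p = 5.87e-17). *Spp1*, osteopontin, fell with TBHQ alone (log2FC -0.59, SE 0.0389, edgeR quasi-likelihood test, BH-adjusted p = 2.83e-16). Of 10 genes of collagens, laminins, elastin and fibronectin, 5 were at the floor in every library, among them *Fn1* and *Col1a2* with no count, and 3 were tested. *Lamc1*, the laminin gamma 1 chain, at a mean of 21.3 ± 0.554 FPKM in the control and 38.3 ± 0.465 with PIC (SD, n = 3), rose with TBHQ (log2FC 0.32, SE 0.0517, edgeR quasi-likelihood test, BH-adjusted p = 5.20e-08) and PIC (log2FC 0.83, SE 0.0244, adjusted p = 4.83e-20).

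Among 10451 tested genes with a mean of at least 50 counts, those whose log2 CPM followed each gene most closely over the 6 condition means (Pearson r, as a description) were *Cry1*, *Pilra* and *Utp23* for *Mmp9* (r = 0.9973 to 0.9977) and *Itpripl2*, *Calcrl* and *Zbtb43* for *Plaur* (r = 0.9971 to 0.9996). The closest to *Mmp12* were *Slc30a7*, *Pgm2* and *Tbc1d20* (r = 0.9936 to 0.9982), and to *Mmp14* they were *Tbc1d9*, *Tbrg1* and *Gm34643* (r = 0.9985 to 0.9989). *Cd300e*, *Sdcbp* and *Ddx24* were closest to *Plau* (r = 0.9829 to 0.9881), and *Dnajb4*, *Phf13* and *Ppp1r13b* to *Adam8* (r = 0.9805 to 0.9944).

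Promoter sequence from RefSeq (build GRCm38.p6), 250 bases before to 50 after each gene's start, was matched for 7 of the 9 genes, all but *Mmp9* and *Plau*, with 8 promoters in all. Both strands were searched for 4 motifs. TGANTCA, the AP-1 motif, which reads the same on both strands, was found in *Mmp12*, *Mmp13* and *Plaur*, and is held by 7.81% of 32851 promoters of 300 bases. GAAANNGAA, from the interferon-stimulated response element, was found in *Mmp13* at 2 overlapping places (8.56% of promoters), and TGACNNNGC, from the antioxidant response element, in *Timp2* (12.4%). GGGANNTTC, from the NF-kB motif (3.94%), was not among the letters of these windows. No match of one motif overlapped a match of another. Such a match is a description of the sequence. The windows of 120 bases that hold the AP-1 letters, in capitals, are shown for the 3 genes because the letters were found there. *Mmp14* and *Adam8*, which also rose with LPS and with PIC, hold no such match. All windows are on the plus strand: *Mmp12* at chr9:7347254-7347373 in the latter of its 2 promoters, the match starting at base -44 from that start, *Mmp13* at chr9:7272394-7272513, its match at -35, and *Plaur* at chr7:24462363-24462482, its match at -69.
Mmp12: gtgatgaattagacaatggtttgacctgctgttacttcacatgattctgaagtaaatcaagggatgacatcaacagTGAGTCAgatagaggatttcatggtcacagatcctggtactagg
Mmp13: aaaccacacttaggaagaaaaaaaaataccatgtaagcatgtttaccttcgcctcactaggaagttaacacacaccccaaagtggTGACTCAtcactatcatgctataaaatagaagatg
Plaur: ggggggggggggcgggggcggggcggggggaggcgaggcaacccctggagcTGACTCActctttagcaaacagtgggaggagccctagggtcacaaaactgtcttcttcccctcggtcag

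Positions given beside the gene names are those of the authors' files, whose build the sources name both as GRCm38 and as mm39. Of 52125 genes shared with the GRCm38 annotation 50588 start elsewhere there, as do 7 of the 9, so they are not comparable with the promoter coordinates. *Mmp12* overlaps *Mmp1b* on the opposite strand by 1261 bases, and *Mmp1b* had 0 to 1 count. *Mmp14* overlaps a lncRNA (ENSMUSG00000120849) of 0 to 13 counts by 297 bases, *Timp2* holds *Cep295nl* with 0 to 2 counts, and *Adam8* overlaps *Gm16201*, with 47 to 104 counts, by 46 bases. Of the 50-base words of their transcripts, 0.498% in *Mmp12* and 0.648% in *Mmp14* also occur in another gene, and none in the other 7.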

How the data were processed

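RNA of 18 libraries was measured, 3 per condition. Per the study's methods and the submitters' processing notes, reads were aligned and counted with HISAT2 2.0.5, StringTie 1.3.3b and featureCounts 1.5.0-p3. The authors deposited a count per gene, with no normalization. The authors also deposited FPKM, equal to the FPKM recomputed from counts, total and listed gene length times 1 constant per library (0.943 to 1.12). This constant differed by condition. It was lowest in the control (0.943 to 0.951) and TBHQ libraries (0.945 to 0.954) and highest with PIC (1.11 to 1.12), so FPKM compared between conditions includes it. The gene length in bases is the authors' own. Counts were tested in R 4.3.3 with edgeR 4.0.16 (filterByExpr, TMM, glmQLFit and glmQLFTest), in a fit to all 18 libraries where each condition had 1 coefficient. Adjustment was by Benjamini-Hochberg over 13691 tested genes, with calls below 0.05. The prior count for log2 CPM was 2. Alternatives were RLE factors, total library size, no filter, a mean of at least 50 counts, the conditions compared only, the replicate number as a block, DESeq2 1.42.0, limma 3.58.1 on log2(FPKM + 1) and log2(FPKM + 0.1), a threshold of 0.01 with |log2FC| above 2, and fits without 1 library at a time. The fits were tried on simulated counts with the same dispersion for all genes and changes in LPS+TBHQ only. Genes at the floor in some conditions and high in others were not covered by these counts. Tables were made with Python 3.11.15 (pandas 2.3.3, numpy 2.4.6) and figures with matplotlib 3.10.9. Depth was 14423390 to 18851626 counts per library. Replicates differed by more than sampling noise in every condition, so none was counted as a duplicate. The 9 genes and the gene lists were chosen with earlier results of these data known. All 9 genes are named, and from each list the 2 genes with the largest |log2FC| among those called with a mean of at least 10 counts may be named in 5 comparisons (LPS, PIC and TBHQ with the control, and each stimulus with and without TBHQ). The sum over 23 MMP genes was taken, and *Adgre1*, *Csf1r*, *Dcstamp*, *Adam15*, *Mmp3*, other low list genes, the rises of *Furin* and *Cd44* with TBHQ alone, those of *Ctsl* after TBHQ and a stimulus, and the falls of *S100a10* after PIC and *Anxa2* after LPS were named, after their values were seen. *Plat*, *Plg* and *Vtn* were named for their part in the pathway.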

Additional observations from a re-analysis of the deposited data

Results flagged for a closer look

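The effect of TBHQ differed between the stimuli for 2 of the 8 tested genes, by the test of the difference itself (the TBHQ change after PIC minus that after LPS, edgeR quasi-likelihood test with BH adjustment). For *Mmp12* it was -1.39 on the log2 scale (SE 0.174, adjusted p = 3.05e-06), with a rise of 0.89 after LPS and a change of -0.50 after PIC. For *Plaur* it was -0.28 (SE 0.0671, adjusted p = 0.017), with changes of -0.21 after LPS and -0.49 after PIC. Both limma fits lost the *Plaur* call (adjusted p = 0.0963 and 0.113), and DESeq2 gave *Mmp12* no adjusted p. *Serpinb2*, an inhibitor of urokinase, met the same rule and was picked out after its values were seen. The difference was 1.31 (SE 0.138, adjusted p = 0.000297), with 15, 18 and 18 counts in the LPS+TBHQ libraries, limma on log2(FPKM + 1) gave -0.016 (adjusted p = 0.963), and DESeq2 did not call it, giving no adjusted p. Over all tested genes 252 were called in this contrast. The causes were not tested.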

How the results depend on the processing

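Of 72 log2 fold changes of the 8 tested genes, 57 kept their direction and side of the threshold under each alternative run for them. The study's stricter threshold is left out here, and 15 changed under at least 1 of the rest. DESeq2 covered 68 of the 72, the conditions compared only 69, and a mean of at least 50 counts 54. RLE factors and the replicate block changed none of the 72, and leaving out libraries left 1271 of 1296 the same.

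At an adjusted p below 0.01 and |log2FC| above 2, calls among all genes fell from 3973 to 26 for TBHQ, 6588 to 224 for LPS, 8038 to 489 for PIC, 5983 to 132 for LPS+TBHQ and 7178 to 295 for PIC+TBHQ (against the control), 3273 to 53 for LPS+TBHQ against LPS, 4285 to 41 for PIC+TBHQ against PIC, 3787 to 42 for PIC against LPS and 252 to 0 for the interaction. Calls among the 9 genes fell from 4 to 0, 7 to 4, 8 to 5 and 7 to 3 in the first 4, and from 6 to 1, 7 to 0, 6 to 2 and 2 to 0 in the last 4. A stricter threshold takes out calls by construction.

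The interaction had 380 calls with no filter, 403 in DESeq2, 147 in limma on log2(FPKM + 0.1) and 160 to 354 with a library left out, and among the 9 genes 1 call in DESeq2 and in both limma fits and 1 to 2 with a library left out.

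Directions reversed, none past the threshold, for the interaction of *Mmp14* (-0.002 with no filter, -0.26 in limma on log2(FPKM + 1), -0.068 on log2(FPKM + 0.1)), *Mmp13* (-0.39 in limma on log2(FPKM + 1)), *Adam8* (0.036 with total library size) and *Serpinb2* (-0.016 in limma on log2(FPKM + 1)). With a library left out the values ran from -0.075 to 0.05 for *Plau* with LPS, -0.16 to 0.19 for *Timp2* in LPS+TBHQ against LPS, -0.044 to 0.003 for *Adam8* in PIC against LPS, and, in the interaction, -0.11 to 0.11 for *Mmp14* and -0.037 to 0.004 for *Adam8*. The cause was not tested.

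Same-numbered replicates carry no stated pairing. Their deviations correlated at -0.07 to 0.14 (median 0.026, 45 pairs), and 11 of 18 libraries were closest to their own number. With the replicate block 4035 genes were called for TBHQ, 6609 for LPS, 8063 for PIC, 6022 for LPS+TBHQ and 7200 for PIC+TBHQ against the control, 3316 and 4342 in the direct comparisons, 3836 in PIC against LPS and 274 in the interaction, and the calls among the 9 genes stayed at 4, 7, 8, 7, 7, 6, 7, 6 and 2.

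DESeq2 gave no adjusted p for *Mmp12*, *Mmp13*, *Mmp14*, *Timp2* and *Serpinb2* in the interaction. A pseudocount of 1 FPKM shrinks the folds of *Mmp12*, *Mmp13* and *Mmp14*, which lie below or near it. Mean FPKM recomputed without the authors' constants moved by over 1 SD in 16 of 54 means. Depth limits *Timp1* in all conditions and *Mmp13* and *Mmp14* without a stimulus.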
